A study of Mus musculus with 4 samples.

Results

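Myc and 38 genes of ribosome biogenesis were followed across T-cell states and B cells of mouse lymph nodes. The members are a list of named genes, all 39 of which were found by symbol among the 28625 gene symbols measured. Myc is a transcription factor that pairs with Max, binds DNA at the E-box motif and is known to drive growth in activated lymphocytes. Among its best known targets are the genes that build ribosomes: RNA polymerase I copies ribosomal RNA in the nucleolus, small nucleolar ribonucleoproteins modify it, and assembly factors fold and cut it into the small and the large subunit. Lymphocytes that leave rest are known to enlarge their nucleoli and raise this programme before they divide.

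The data are single-cell 3′ RNA counts from sorted CD4 T cells of the mediastinal lymph node, the node that drains the lung. Mice had received 10 µg of Alternaria alternata extract, a fungal allergen, with 25 µg of NP-OVA, a hapten-protein antigen, through the nose, and nodes were taken on day 7. Sorted cells of both groups were then given PMA and ionomycin, which bypass the T-cell receptor, for 30 min. The data hold no unstimulated or unimmunised group, and no age is given. The Tfh sort, gated as TCRβ+ CD4+ CD44+ PD-1+ CXCR5+, came from 3 C57BL/6 mice. The other sort, called the IL-4 reporter sort and gated as TCRβ+ CD4+ CD44+ GFP(IL-4)+, came from 3 C57BL/6 mice carrying the 4GET reporter, in which GFP marks cells that have switched on the Il4 gene. Each sort was 1 lane with 1 chemistry, strain and sequencing run, which cannot be told apart from the sort. Every test below therefore lies within a sort and compares states over its 3 mice, told apart by hashtag antibodies.

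T cells passing the filters numbered 2909 in the Tfh sort (648 to 1177 per mouse, median 2636 to 2880.5 molecule counts, or UMIs, per cell) and 3365 in the IL-4 reporter sort (985 to 1241 per mouse, median 6245 to 6831 UMIs). Filters kept 3916 of 3956 barcodes in the Tfh sort and 4585 of 7646 in the reporter sort, where 2772 exceeded the mitochondrial limit, and the libraries shared 1 barcode. T-cell marker genes summed to between 8726 and 8908 CPM (counts scaled to a common library total) in T cells of the Tfh sort and between 6423 and 6944 CPM in the reporter sort, and B-cell markers to at most 29.8 and 5.78 CPM. Both gates select T cells, yet 355 and 119 cells assigned to a mouse had 2 or more Cd79a UMIs and fewer than 2 UMIs of the T-cell markers. In these B cells, B-cell markers summed to between 5168 and 6586 CPM and T-cell markers to at most 180 CPM, both set in part by that definition. The sole marker of the B-cell list at 0 in T cells was Cd79a, by definition, and Cd8a and Cd8b1 were excluded from T cells the same way.

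The 39 genes lie on 17 chromosomes, with 6 each on chromosomes 1 and 11. Myc itself lies at chr15:61985391-61990374 on the plus strand of GRCm38, Ncl at chr1:86344719-86359400 on the minus strand and Npm1 at chr11:33152287-33163206 on the minus strand. Because Myc with Max binds CACGTG, a palindrome that reads alike on both strands, the RefSeq promoters of GRCm38.p6 (250 bases before to 50 after each gene start) were searched for it. Of the members, 33 of 39 had an entry, and Myc, Npm1, Fbl, Bop1, Rrp12 and Rrs1 had none. The motif stood in 5 of 36 member promoters (13.9%), against 18 of 96 promoters (18.8%) of other ribosome biogenesis genes and 2349 of 32851 promoters overall (7.15%). The letters are a description of these windows and not a measured binding site. The member windows that hold it are shown because they carry the motif of the list's own transcription factor, 5′ to 3′ on the plus strand with the motif in capitals:
Nop2, chr6:125131811-125131840: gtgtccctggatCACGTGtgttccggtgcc
Pes1, chr11:3963965-3963994: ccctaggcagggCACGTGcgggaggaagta
Wdr43, chr17:71616220-71616249: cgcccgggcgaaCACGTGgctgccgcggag
Tsr1, chr11:74898092-74898121: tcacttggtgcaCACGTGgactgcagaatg
Mybbp1a, chr11:72441355-72441376: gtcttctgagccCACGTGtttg
With the gene start as base 1, the motif begins at base 3 in Pes1, 18 in Wdr43, 25 in Tsr1 and 41 in Mybbp1a, and in Nop2 it begins at base -60, ahead of the start. Of these genes, Wdr43, Pes1 and Mybbp1a passed the test in at least 1 comparison below, and Nop2 and Tsr1 in none. Over all 39 members, 24 passed in at least 1. Whether passing goes with the motif was not tested.

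Levels are first given as CPM over all T cells of a mouse, mean ± SD over 3 mice; the counts are 3′ molecules and are not corrected for how well a gene is captured, so they are compared between cells and not between genes. Myc stood at 323 ± 19.7 CPM in T cells of the Tfh sort and at 79.5 ± 4.88 CPM in the reporter sort. Ncl, nucleolin, a nucleolar RNA-binding protein, stood at 586 ± 9.36 and 1133 ± 186 CPM. Npm1, nucleophosmin, a nucleolar chaperone whose processed pseudogenes may take some of its reads, stood at 1129 ± 27.8 and 1938 ± 252 CPM. The scarcest member was Polr1b, a core subunit of RNA polymerase I, at 3.91 ± 0.344 and 5.18 ± 1.29 CPM, too low to be tested in any comparison of the Tfh sort. Heatr1, a factor of early small-subunit assembly, at 4.29 CPM, was likewise never tested there. The ratio of the sorts for Myc was 4.06 in T cells and 4.09 in B cells; for the other members in T cells it had a median of 0.812 and ranged from 0.330 for Heatr1 to 2.15 for Polr1c, with 29 of 38 below 1. These ratios carry no test, since the sorts differ in strain, chemistry and run.

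For each state, cells with and without a transcript were matched on total UMIs within each mouse, summed, and tested with edgeR's quasi-likelihood test with mouse as a block. A gene passed at a Benjamini-Hochberg adjusted p under 0.05 over all genes tested. Levels from here on are CPM scaled by edgeR's TMM factors in the matched cells, changes are log2, and n is 3 mice unless stated. The standard error (SE) of a change is its size divided by the square root of edgeR's F statistic. Both the SE and the p-value rest on dispersion moderated across genes and are not the spread of the mice. Of the 39 members, 24 passed in at least 1 of the 18 comparisons, and 15 passed in none: Nop2, Nop14, Nop16, Wdr12, Bop1, Rrp12, Polr1a, Polr1b, Polr1c, Ddx18, Ifrd2, Bysl, Nob1, Tsr1 and Heatr1. The share of all genes that passed in at least 1 comparison was not counted, so the 24 members have no background beside them. B cells of the Tfh sort alone had 23.2% of all genes tested higher and 20.2% lower. No RNA polymerase I subunit passed anywhere, but in the Tfh sort Polr1b was tested in 0 and Polr1a in 3 of 9 comparisons. Npm1, with far higher counts, passed in 8 of 9 comparisons of the Tfh sort and 6 of 9 of the reporter sort. Comparisons within a sort reuse the same cells, so a gene's passes are not independent of one another.

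**Figure D1:**
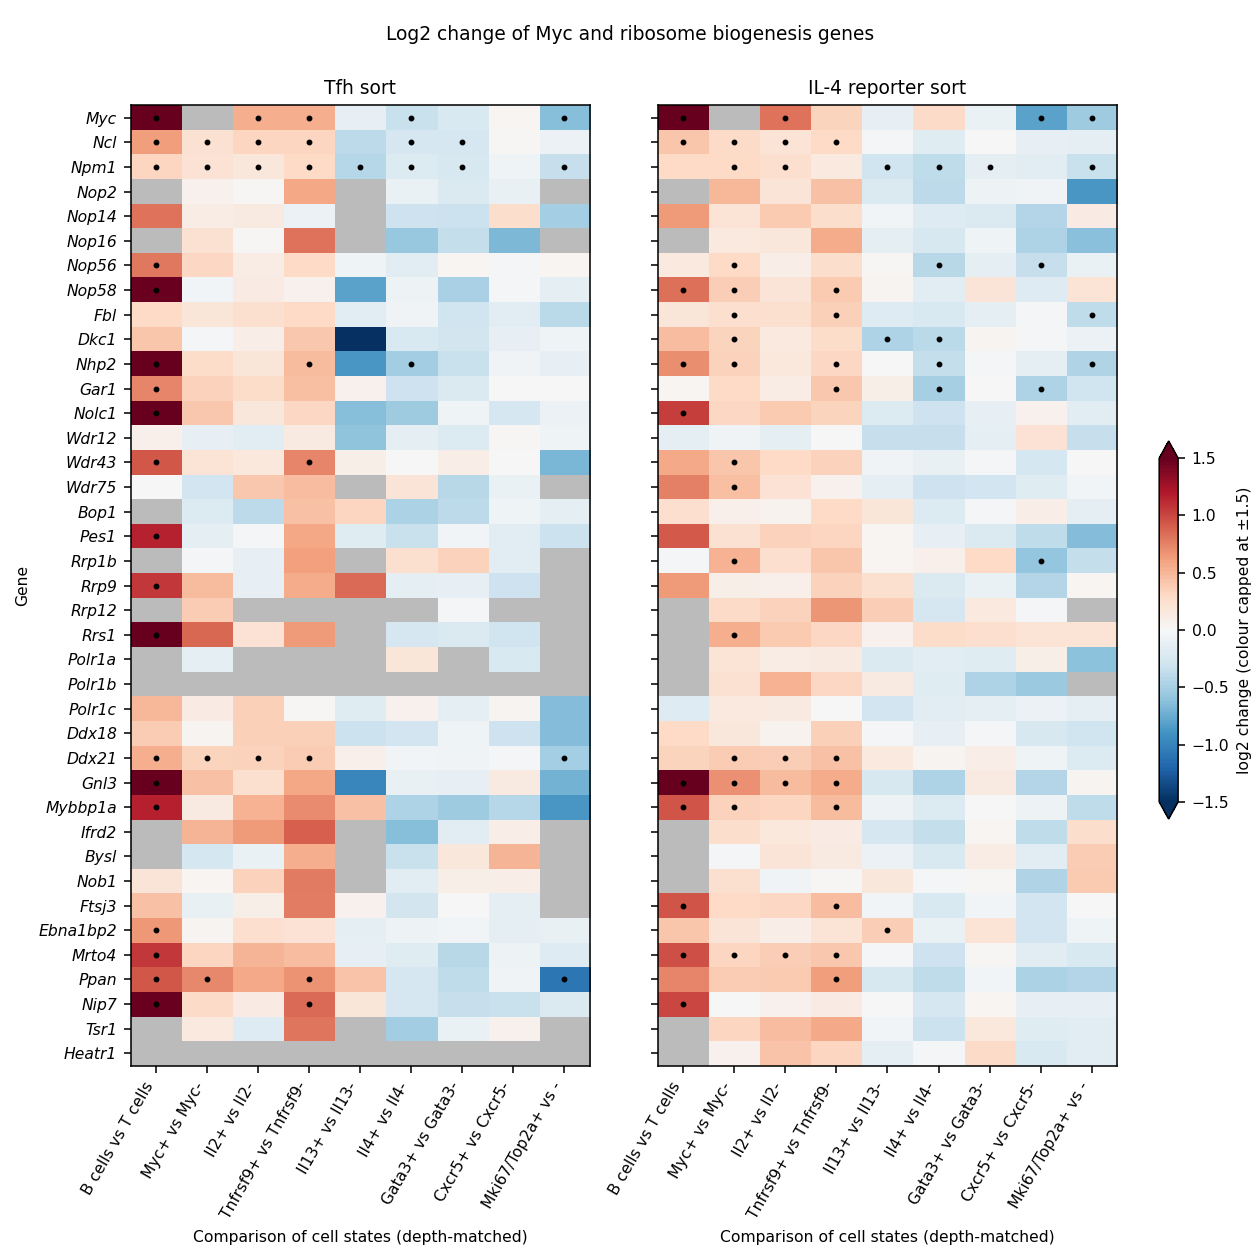
Log2 change of each of the 39 members (rows) in each comparison of depth-matched states (columns), Tfh sort at left and IL-4 reporter sort at right; colour gives the change, capped at 1.5 in either direction, dots mark genes that passed edgeR's test, and grey marks genes not tested. The B-cell, Myc, Il2 and Tnfrsf9 columns are mostly red, with every dot there on a higher gene, and the Il4 and cycling columns are mostly blue.

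B cells carried much more Myc than T cells of the same mice, together with many genes of nucleolar RNA modification and large-subunit assembly. Of the members tested in the Tfh sort, 19 of 28 were higher in B cells and none lower, where 23.2% of all genes tested were higher and 20.2% lower. The members' median was 0.80 (0.83 to 1.02 as the median of each mouse's own ratios), and the median of all genes lay near 0 in every comparison. The reporter sort, with 35, 22 and 62 B cells, gave 10 of 28 higher and none lower, against 13.9% of all genes higher and 13.6% lower, and a median of 0.60 (0.31 to 0.80 by mouse). DESeq2, run as an alternative, called 8 and 2 members. The 11 remaining members had too few counts for the test in each sort.

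Myc in the Tfh sort stood at 271, 314 and 339 CPM in T cells of mice 1, 2 and 3 and at 2365, 2398 and 2519 in B cells. Every B-cell value lay far above every T-cell value, a log2 change of 2.99 (SE 0.079, edgeR adjusted p = 7.4e-293). Myc in the reporter sort stood at 64.7, 73.5 and 82.8 CPM in T cells and at 546, 744 and 502 in B cells, again apart, with a change of 2.94 (SE 0.186, edgeR adjusted p = 7.5e-54). The change in Myc stayed between 2.81 and 3.06 in the Tfh sort and between 2.81 and 3.18 in the reporter sort under every alternative run, and passed in each.

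Ncl in the Tfh sort stood at 479, 565 and 497 CPM in T cells and 808, 838 and 731 in B cells, which did not overlap (0.63, edgeR adjusted p = 1.2e-10). Ncl in the reporter sort stood at 765, 696 and 650 CPM in T cells and 1330, 733 and 785 in B cells (0.41, edgeR adjusted p = 0.014), a gap widest in mouse 1; without mouse 1 it was 0.19 (edgeR adjusted p = 0.62), and it passed in 3 of 13 alternatives. Npm1 was the weakest of the trio, at 784, 862 and 820 CPM in T cells and 1004, 1073 and 1006 in B cells of the Tfh sort (0.32, edgeR adjusted p = 0.00022), and at 0.29 in the reporter sort (edgeR adjusted p = 0.077). Npm1 did not hold its direction when cells were left unmatched, at -0.016 in the Tfh sort and -0.47 in the reporter sort; Ncl in the reporter sort then stood at -0.27.

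Among the ribonucleoprotein genes, 6 of 8 were higher in B cells of the Tfh sort and 3 of 8 in those of the reporter sort. Nhp2, a core protein of the H/ACA particles that guide pseudouridylation, stood at 106, 110 and 79.4 CPM in T cells of the Tfh sort and at 321, 296 and 321 in B cells (1.66, edgeR adjusted p = 8.4e-24). Nop58, a core protein of the C/D particles that guide methylation of ribosomal RNA, stood at 47.9, 63.8 and 52.9 against 169, 150 and 135 CPM (1.48, edgeR adjusted p = 1e-11). Nolc1, a chaperone of both kinds of particle, stood at 53.6, 49.6 and 30.0 against 142, 105 and 140 CPM (1.52, edgeR adjusted p = 1.1e-10). In all of these, no B-cell value fell within the T-cell range. The same genes passed in the reporter sort at 0.70 for Nhp2, 0.82 for Nop58 and 1.04 for Nolc1, but none of them did with cells left unmatched.

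Of the large-subunit factors, 7 of 10 tested were higher in B cells of the Tfh sort. Gnl3, nucleostemin, a nucleolar GTPase, stood at 59.2, 49.6 and 33.5 CPM in T cells and 209, 231 and 241 in B cells (2.22, SE 0.194, edgeR adjusted p = 7.2e-29). Rrs1, needed for assembly of the large subunit's 5S particle, stood at 7.05, 14.2 and 19.4 against 59.6, 89.1 and 38 CPM (2.23, SE 0.360, edgeR adjusted p = 5e-09), a clear gap with a wide spread among B cells. Nip7, a factor of large-subunit maturation, stood at 22.6, 44.3 and 24.7 against 62.9, 117 and 76.1 CPM (1.48, edgeR adjusted p = 2.4e-07). Pes1, a member of the PeBoW complex, stood at 29.6, 28.4 and 42.3 against 49.7, 48.6 and 131 CPM (1.15, edgeR adjusted p = 0.00011), with mouse 3 far above the others; without mouse 3 it was 0.76 (edgeR adjusted p = 0.098). Its PeBoW partner Wdr12 gave 0.074 and did not pass, and Bop1 was not tested.

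Gnl3 was the most changed assembly factor that passed in the reporter sort, at 25.3, 30.3 and 31.4 CPM in T cells and 114, 95.6 and 59.5 in B cells, which did not overlap (1.52, edgeR adjusted p = 1.1e-05). Mrto4 (0.97), Ftsj3 (0.94) and Nip7 (1.00, higher in 2 of 3 mice) were the other large-subunit factors that passed there. Mybbp1a, a nucleolar Myb-binding protein, passed at 1.17 in the Tfh sort and 0.94 in the reporter sort. The other members higher in B cells of the Tfh sort were Rrp9, Mrto4, Ppan, Wdr43, Nop56, Gar1, Ebna1bp2 and Ddx21, between 0.54 and 1.07. Ribosomal protein genes took 24.6 to 25.5% of UMIs in B cells and 22.6 to 23.3% in T cells of the Tfh sort, and 27.7 to 32.3% against 25.2 to 26.8% in the reporter sort. Myeloid markers summed to between 145 and 525 CPM in B cells and 105 and 110 in T cells of the Tfh sort, proliferation markers to between 357 and 571 against 545 and 724 CPM, and germinal-centre B markers in reporter-sort B cells ranged from 37.2 to 497 CPM over the mice. With cells bearing any Mki67 or Top2a UMI left out, Myc, Gnl3 and Nhp2 still passed in the reporter sort. Ncl, Nolc1, Mrto4, Mybbp1a, Ftsj3 and Nop58 then no longer passed there. Beyond that, the part of these markers in the result was not tested.

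**Figure D2:**
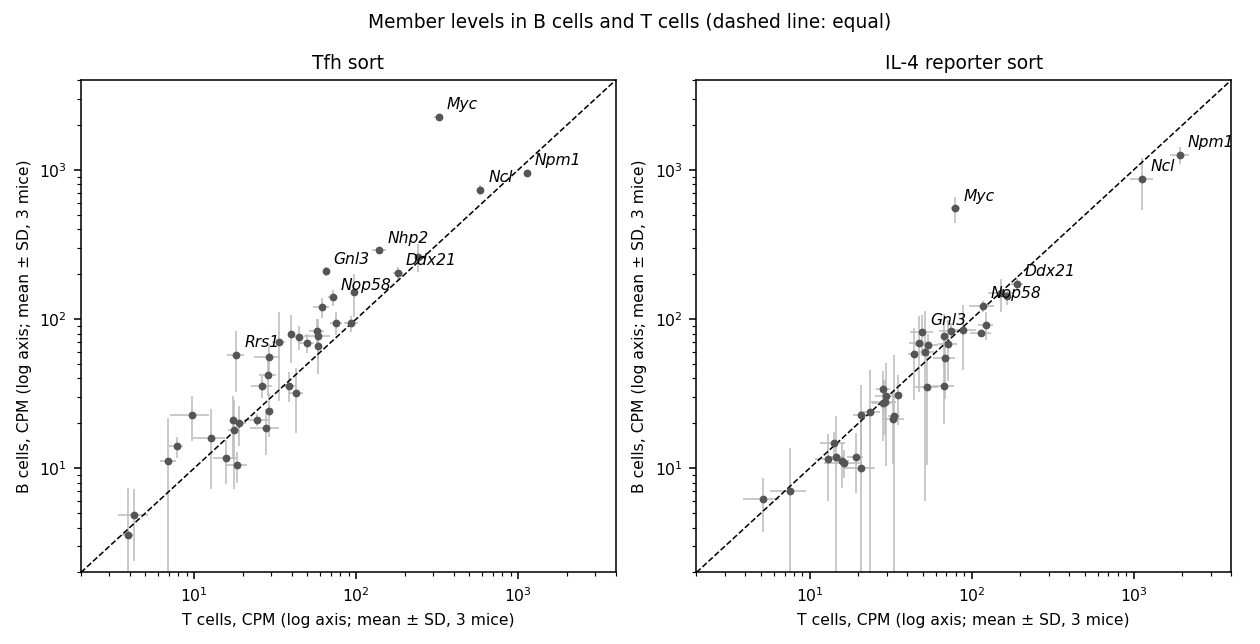
Level of each member in B cells (vertical, log axis) against T cells (horizontal, log axis) in CPM of plain totals, mean ± SD over 3 mice, Tfh sort at left and reporter sort at right; the dashed line marks equal levels. Myc lies farthest above the line in both panels, at 323 against 2259 CPM in the Tfh sort and 79.5 against 552 CPM in the reporter sort.

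At a fixed depth Myc set B cells apart from T cells far more than the other members did. Thinned to 2000 UMIs, cells of the Tfh sort held 0.708, 0.631 and 0.689 Myc UMIs per T cell and 4.22, 3.91 and 4.59 per B cell, while the other 38 members together gave 6.40, 6.42 and 6.20 UMIs per T cell and 8.0, 9.26 and 8.54 per B cell. Thinned to 4000 UMIs, cells of the reporter sort held 0.319, 0.353 and 0.334 Myc UMIs per T cell and 2.69, 2.67 and 1.95 per B cell, and the other members gave 14.2, 15.4 and 15.1 against 13.5, 12.5 and 13.4. The summed members were thus lower in B cells of the reporter sort in each mouse on this measure, which keeps the deep T cells and weighs abundant genes most. Cells too shallow to thin were left out, 115 to 233 T and 50 to 60 B cells per mouse in the Tfh sort and 151 to 264 and 9 to 21 in the reporter sort.

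Cells with 2 or more Il2 UMIs, which make the T-cell growth factor interleukin 2, held more Myc than cells with none in both sorts. In the Tfh sort 4 of 35 members tested were higher and none lower, against 3.35% of all genes higher and 1.76% lower. They were Myc, Ncl, Npm1 and the RNA helicase Ddx21, and the members' median was 0.17 (0.16 to 0.27 by mouse). The reporter sort gave 6 of 39 higher and none lower, against 2.27% and 1.02% of all genes, with a median of 0.22 (0.17 to 0.34 by mouse): these 4 genes with Gnl3 and Mrto4. DESeq2 called 1 member in each sort. No ribonucleoprotein gene passed in either sort, although 7 of 8 and 8 of 8 had changes above 0.

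Myc in the Tfh sort stood at 315, 250 and 261 CPM in Il2- cells and at 436, 364 and 408 in Il2+ cells of mice 1, 2 and 3. All Il2+ values exceeded all Il2- values, 275 ± 34.7 against 403 ± 36.3 CPM (SD), for a change of 0.54 (SE 0.078, edgeR adjusted p = 1.8e-05), which passed in all 15 alternatives run, between 0.49 and 0.72. Myc in the reporter sort stood at 63.9, 49.3 and 82.6 against 99, 130 and 115 CPM, 65.3 ± 16.7 against 115 ± 15.5 (SD), again without overlap (0.81, SE 0.131, edgeR adjusted p = 0.0011). That call was lost at a 5% mitochondrial limit and without mouse as a block.

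Ncl in the Tfh sort stood at 525, 527 and 497 CPM in Il2- and 664, 669 and 609 in Il2+ cells, without overlap (0.33, edgeR adjusted p = 0.00086). Ncl in the reporter sort stood at 850, 1276 and 1059 against 974, 1458 and 1245 CPM, higher in each mouse although the groups overlapped, with mouse 1 low in both states (0.21, edgeR adjusted p = 0.0049). Ddx21, which acts in both polymerase I transcription and ribosomal RNA processing, stood at 185, 146 and 138 against 216, 187 and 199 CPM in the Tfh sort (0.35, edgeR adjusted p = 0.035). Ddx21 in the reporter sort stood at 164, 199 and 186 against 213, 236 and 257 CPM (0.37, edgeR adjusted p = 0.0033), also without overlap. Without mouse 1, 2 or 3 the Tfh-sort change in Ddx21 was 0.43, 0.35 and 0.29 and did not pass, and it passed in 6 of 15 alternatives. Npm1 passed at 0.17 (edgeR adjusted p = 0.044) and 0.25 (edgeR adjusted p = 0.00099), higher in 3 of 3 mice each, but in the Tfh sort it no longer passed when any 1 mouse was left out, at 0.19, 0.13 and 0.20 without mouse 1, 2 and 3. Leaving out each mouse in turn left 2 to 3 members passing in the Tfh sort and 2 to 7 in the reporter sort, the fewest there without mouse 3.

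Il2+ cells differed in other respects too. Proliferation markers summed to between 1110 and 1350 CPM in Il2+ and between 1470 and 1860 in Il2- cells of the Tfh sort, and Treg markers (Foxp3, Ikzf2, Il2ra) to between 132 and 169 against 191 and 255 CPM. In the reporter sort Treg markers summed to between 86.7 and 119 CPM in Il2+ and 125 and 160 in Il2- cells. The Tfh-sort change in Myc passed also without Foxp3+ cells and without cycling cells.

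Cells with a UMI of Tnfrsf9, which encodes the activation-induced receptor 4-1BB, were compared with cells lacking one. The Tfh sort gave 8 of 35 members higher and none lower, against 2.29% of all genes higher and 1.5% lower, with 34 of 35 changes above 0 and a median of 0.48 (0.41 to 0.54 by mouse). The reporter sort gave 11 of 39 higher and none lower, against 2.07% and 1.43% of all genes, with 38 of 39 above 0 and a median of 0.32 (0.26 to 0.37 by mouse). All 14 large-subunit factors of the Tfh sort and 13 of 14 of the reporter sort had changes above 0, with medians of 0.58 and 0.38, though 2 and 4 of them passed. DESeq2 called 0 members in the Tfh sort, where 21 had an unadjusted p under 0.05 by edgeR, and 2 in the reporter sort. At a 5% mitochondrial limit no member passed by edgeR in the reporter sort, the median was 0.11, and Ncl (-0.0028), Npm1 (-0.063) and Mrto4 (-0.055) stood below 0.

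Myc in the Tfh sort stood at 312, 284 and 293 CPM in Tnfrsf9- and 504, 357 and 438 in Tnfrsf9+ cells, 296 ± 13.9 against 433 ± 73.5 (SD), without overlap (0.54, SE 0.089, edgeR adjusted p = 0.00057; 0.44 and adjusted p = 0.1 without mouse 1). Myc in the reporter sort stood at 72.1, 62.4 and 83.0 against 101, 76.2 and 97.6 CPM, higher in each mouse but not past the threshold (0.33, edgeR adjusted p = 0.088). Whether the sorts differ in this was not tested. Ncl passed in both, at 555, 623 and 499 against 702, 702 and 717 CPM in the Tfh sort (0.33, edgeR adjusted p = 0.0093) and at 1046, 1283 and 1017 against 1158, 1685 and 1283 CPM in the reporter sort (0.29, edgeR adjusted p = 0.011), where the groups overlapped. Npm1 stood at 1055, 1131 and 1002 against 1359, 1347 and 1205 CPM in the Tfh sort, without overlap (0.30, edgeR adjusted p = 0.0013), and was higher in 2 of 3 mice in the reporter sort (0.15, edgeR adjusted p = 0.22).

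Among assembly factors, Nip7 stood at 35.1, 30.0 and 35.6 CPM in Tnfrsf9- and 57.4, 67.1 and 54.8 in Tnfrsf9+ cells of the Tfh sort (0.85, SE 0.201, edgeR adjusted p = 0.015). Wdr43, a protein of the small-subunit processome and 1 of the genes with the E-box shown above, stood at 51.7, 52.4 and 31.5 against 84.8, 70.2 and 82.1 CPM (0.73, SE 0.181, edgeR adjusted p = 0.02). Ppan, a large-subunit assembly factor, stood at 35.7, 41.6 and 35.6 against 54.9, 67.1 and 60.2 CPM (0.67, edgeR adjusted p = 0.049) and passed in the reporter sort as well, at 25.1, 26.7 and 28.2 against 39.1, 50.3 and 37.0 CPM (0.63, edgeR adjusted p = 0.028). None of these groups overlapped, but Ppan passed in 3 of 16 alternatives in the Tfh sort. Nhp2 passed in both sorts (0.48 and 0.32), as did Ddx21, whose reporter-sort levels were 169, 197 and 180 against 243, 259 and 237 CPM (0.44, SE 0.077, edgeR adjusted p = 0.0037).

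The reporter sort added Gnl3, at 41.1, 52.7 and 44.6 against 53.7, 77.7 and 71.6 CPM (0.56, edgeR adjusted p = 0.011), with Mybbp1a, Ftsj3, Gar1, Mrto4, Nop58 and Fbl between 0.36 and 0.48. Fbl, fibrillarin, is the methyltransferase of the C/D particles, and with Nop58, Gar1 and Nhp2 it made 4 of 8 ribonucleoprotein genes higher there. Without mouse 1 no member passed in either sort, with medians of 0.46 and 0.34. With cells bearing any Il2 UMI left out 1 member passed in each, with medians of 0.31 and 0.33. Treg markers summed to between 254 and 438 CPM in Tnfrsf9+ and 124 and 166 in Tnfrsf9- cells of the Tfh sort, and to between 201 and 271 against 118 and 150 in the reporter sort; without Foxp3+ cells 5 and 6 members passed. Proliferation markers summed to between 1010 and 1430 CPM in Tnfrsf9+ and 1560 and 1700 in Tnfrsf9- cells of the Tfh sort. With cells bearing any Mki67 or Top2a UMI left out, Myc, Ncl and Nhp2 still passed there. Npm1, Nip7, Wdr43 and Ppan then kept their direction but no longer passed, as did Ppan, Ftsj3 and Gar1 in the reporter sort. Beyond that, the part of these markers in the result was not tested.

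**Figure D3:**
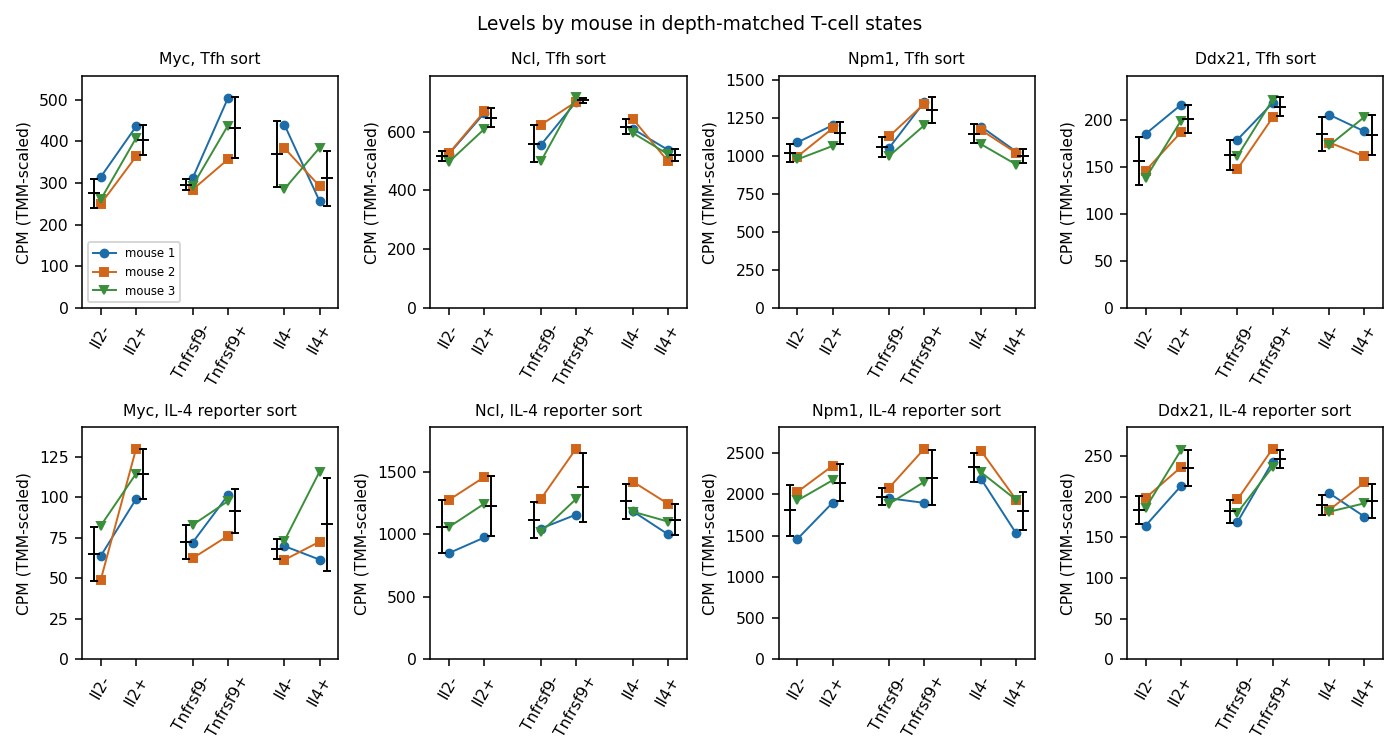
Levels of Myc, Ncl, Npm1 and Ddx21 in CPM (TMM-scaled, axes from 0) in depth-matched cells without and with Il2, Tnfrsf9 and Il4 UMIs, 1 line per mouse with mean ± SD in black, Tfh sort above and reporter sort below. Every line for Myc climbs from Il2- to Il2+ cells, and every line for Npm1 falls from Il4- to Il4+ cells.

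Cells were then split by both transcripts at fixed depth, with states read from the thinned counts. The 38 members other than Myc gave 5.83 ± 0.176 UMIs per 2000 (SD, n = 3) in Tfh-sort cells with neither transcript, 6.53 ± 0.216 with Il2 alone, 7.94 ± 0.642 with Tnfrsf9 alone and 10.7 ± 0.737 with both. The values with both were 11.3, 9.88 and 10.9 by mouse, from 45, 24 and 17 cells, and lay above every value of the other states. Myc alone gave 0.562 ± 0.0413, 0.798 ± 0.0949, 0.885 ± 0.131 and 1.14 ± 0.362 UMIs in the same order, where the state with both overlapped the single states. In the reporter sort the 38 members gave 14.2 ± 0.779 UMIs per 4000 with neither, 16.6 ± 0.672 with Il2 alone, 17.2 ± 0.964 with Tnfrsf9 alone and 40.4 ± 10.8 with both. The last rests on 8, 9 and 17 cells and spread widely, at 29.2, 50.8 and 41.2 by mouse, yet stood apart from the rest. Myc there gave 0.291 ± 0.0170, 0.611 ± 0.156, 0.348 ± 0.132 and 0.587 ± 0.103 UMIs, in the same order. In mouse 1 the cells with Tnfrsf9 alone held 0.5 Myc UMIs and those with Il2 alone 0.46, so these states overlapped. These values are a description with no test.

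**Figure D4:**
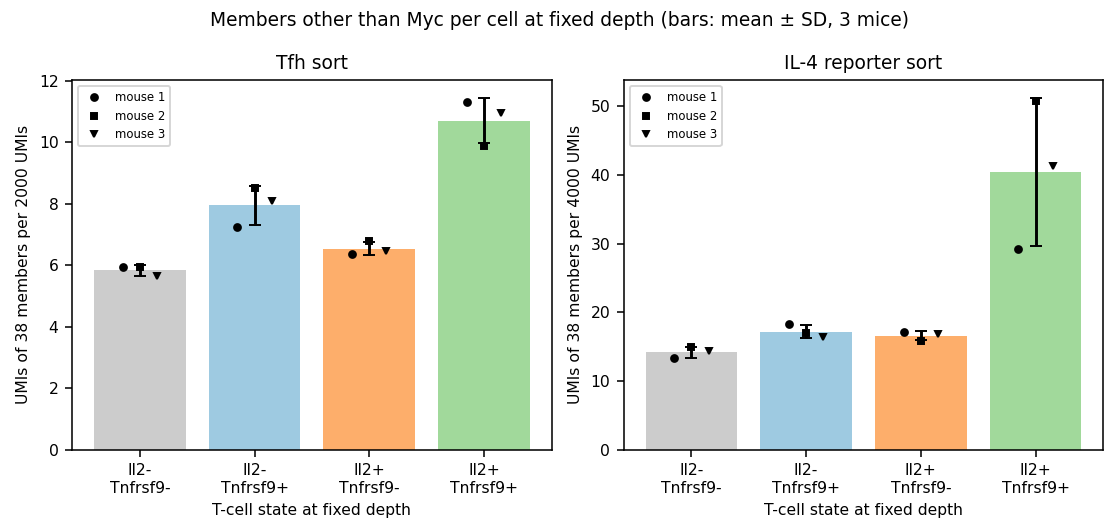
UMIs of the 38 members other than Myc per cell thinned to 2000 UMIs (Tfh sort, left) or 4000 UMIs (reporter sort, right) in T cells split by Il2 and Tnfrsf9; bars and error bars give mean ± SD over 3 mice and points the mice. Cells with both transcripts stand highest, at 10.7 and 40.4 UMIs, the latter from 8 to 17 cells per mouse. The states were not matched on depth before thinning.

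Cells with a Myc UMI were compared with cells lacking one to see which of the other 38 members went with it; Myc itself was left out of the test. In the Tfh sort 4 of 36 tested were higher and none lower (all genes: 3.07% higher, 0.836% lower), with a median of 0.16 (0.045 to 0.25 by mouse). The reporter sort gave 15 of 38 higher and none lower (all genes: 3.12% higher, 1.38% lower), with 36 of 38 changes above 0 and a median of 0.29 (0.099 to 0.37 by mouse). DESeq2 called 1 and 3. Ncl, Npm1 and Ddx21 passed in both; Ppan passed in the Tfh sort and stood at 0.39 in the reporter sort (edgeR adjusted p = 0.084).

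Ncl stood at 509, 526 and 507 CPM in Myc- and 604, 608 and 595 in Myc+ cells of the Tfh sort, a narrow spread without overlap (0.23, edgeR adjusted p = 0.011). Ppan stood at 32.9, 34.5 and 29.1 against 56.7, 56.1 and 45.5 CPM (0.72, SE 0.161, edgeR adjusted p = 0.0071), the widest gap of the 4. Npm1 stood at 943, 985 and 925 against 1145, 1084 and 1104 CPM (0.22, edgeR adjusted p = 0.0025). Without mouse 1 none of the members passed by edgeR in the Tfh sort and none did with cells bearing any Il2 UMI left out, while the median stayed at 0.19 and 0.14. Proliferation markers summed to between 889 and 1020 CPM in Myc+ and 1120 and 1460 in Myc- cells of the Tfh sort. With cells bearing any Mki67 or Top2a UMI left out, Ncl, Npm1, Ppan and Ddx21 still passed there. Beyond that, the part of these markers in the result was not tested.

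Gnl3 led in the reporter sort, at 30.4, 37.8 and 44.6 CPM in Myc- and 55.4, 72.3 and 53.5 in Myc+ cells, without overlap (0.68, edgeR adjusted p = 0.00056). Ddx21 stood at 158, 172 and 175 against 208, 234 and 214 CPM (0.38, edgeR adjusted p = 0.00046). Ncl stood at 933, 1058 and 959 against 1093, 1428 and 1088 CPM, higher in each mouse and without overlap (0.28, edgeR adjusted p = 0.00078). The ribonucleoprotein genes Nop56, Nop58, Fbl, Dkc1 and Nhp2, dyskerin being the pseudouridine synthase that Dkc1 encodes, made 5 of 8 higher. Rrs1, Rrp1b, Mrto4, Wdr43, Wdr75 and Mybbp1a completed the list. Without mouse as a block none passed in the reporter sort, and without cells bearing any Il2 UMI 4 did. Without mouse 1 or 2 the count was 8 and 9. With cells bearing any Mki67 or Top2a UMI left out, Rrs1, Rrp1b, Wdr75, Wdr43 and Nhp2 kept their direction but no longer passed. Ribosomal protein genes took a larger share of UMIs in Myc+ cells, 23.5 to 24.1% against 22.4 to 23.0% in the Tfh sort and 26.9 to 28.8% against 26.2 to 26.4% in the reporter sort; their part in the result was not tested.

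Cells with 2 or more Il4 UMIs, the transcript of the type 2 cytokine interleukin 4, held less of a few of these genes at matched depth. The Tfh sort gave none higher and 4 of 36 lower (all genes: 2.36% higher, 2.07% lower), with 32 of 36 changes below 0 and a median of -0.24 (-0.29 to -0.11 by mouse). The reporter sort gave none higher and 5 of 39 lower (all genes: 4.05% higher, 1.41% lower), with 35 of 39 below 0 and a median of -0.22 (-0.33 to -0.16 by mouse). Npm1 and Nhp2 passed in both. DESeq2 called 0 and 1, against 8 and 12 members with an unadjusted p under 0.05 by edgeR. The direction hung on depth matching: with unmatched cells, among which those with Il4 were deeper, the medians were 0.041 and 0.18, Npm1 stood at 0.14 and 0.16, and 10 members were higher and none lower in the reporter sort.

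Npm1 in the Tfh sort stood at 1196, 1173 and 1080 CPM in Il4- and 1030, 1022 and 945 in Il4+ cells (-0.20, edgeR adjusted p = 0.0041), and in the reporter sort at 2190, 2529 and 2269 against 1527, 1935 and 1933 CPM (-0.38, edgeR adjusted p = 2.9e-05). Neither pair of groups overlapped. Nhp2 stood at 167, 179 and 116 against 119, 108 and 104 CPM in the Tfh sort (-0.52, SE 0.116, edgeR adjusted p = 0.0019), lower in each mouse with some overlap, and at 180, 216 and 185 against 139, 171 and 144 CPM in the reporter sort (-0.35, edgeR adjusted p = 0.013). Ncl stood at 610, 644 and 596 against 538, 500 and 523 CPM in the Tfh sort, without overlap (-0.25, edgeR adjusted p = 0.008), and gave -0.18 in the reporter sort (edgeR adjusted p = 0.085). Without mouse 2 none of Ncl (-0.19), Npm1 (-0.21) and Nhp2 (-0.38) passed in the Tfh sort. Gar1, Nop56 and Dkc1 made 4 of 8 ribonucleoprotein genes lower in the reporter sort together with Nhp2. Gar1 stood there at 82.6, 89.0 and 86.8 against 53.7, 73.2 and 55.1 CPM (-0.50, edgeR adjusted p = 0.0068).

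Myc differed among mice in Il4+ cells. In the Tfh sort it stood at 441, 384 and 286 CPM in Il4- and 257, 293 and 385 in Il4+ cells, lower in mice 1 and 2 and higher in mouse 3; edgeR called it lower (-0.33, SE 0.097, adjusted p = 0.027), which became -0.064 without mouse 1 and -0.30 without mouse 2, neither passing. In the reporter sort it stood at 70.0, 61.4 and 73.2 against 61.6, 72.6 and 116 CPM (0.29, edgeR adjusted p = 0.23). There it turned to -0.92 when cells were thinned. Ribosomal protein genes were also a smaller share in Il4+ cells, 22.5 to 22.6% against 24.1 to 24.6% in the Tfh sort and 25.1 to 25.7% against 26.7 to 27.9% in the reporter sort, and their part in the result was not tested.

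Cells with 2 or more UMIs of Il13, the transcript of interleukin 13, gave few calls with matched cells, and in the reporter sort the direction differed between ways of equalising depth. In the Tfh sort mouse 3 had 9 matched cells and was dropped, so n is 2 mice there: none was higher and 1 of 25 lower (all genes: 3.44% higher, 1.36% lower), Npm1, at 1126 and 1162 CPM in Il13- and 792 and 912 in Il13+ cells (-0.43, SE 0.121, edgeR adjusted p = 0.027). It passed in 2 of 12 alternatives. The reporter sort gave 1 higher and 2 lower of 39 (all genes: 12% higher, 8.86% lower), shares below those of all genes, and a median of -0.046. Npm1 stood at 2080, 1980 and 2054 against 1496, 1790 and 1705 CPM (-0.30, edgeR adjusted p = 0.001) and Dkc1 at 69.2, 63.4 and 81.1 against 45.0, 49.1 and 60.8 CPM (-0.47, edgeR adjusted p = 0.01), both without overlap, Dkc1 at -0.39 and not passing without mouse 1. Ebna1bp2, a large-subunit factor, was higher, at 104, 116 and 114 against 133, 143 and 156 CPM (0.37, edgeR adjusted p = 0.0092). Myc gave -0.13 and -0.12 (edgeR adjusted p = 0.82 and 0.5).

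Matching removed the deepest Il13+ cells of the IL-4 reporter sort: their median was 12121, 12842.5 and 14373 UMIs by mouse before it and 9759.5, 10355.5 and 11242 after it. Without matching, 29 members were higher and 1 lower there, with a median of 0.71, and Npm1 and Dkc1 turned to 0.83 and 0.66. Of all 10086 genes tested without matching, 2826 were higher and 2903 lower. Cells thinned to one depth, which keeps the deepest, gave 15 members higher and none lower, with a median of 0.42. Of all 8398 genes tested in thinned cells, 1504 were higher and 1311 lower. The 38 members other than Myc then summed to 15.85, 19.7 and 21.1 UMIs per 4000 in Il13+ cells and 13.8, 14.1 and 14.5 in Il13- cells, without overlap. Ribosomal protein genes took 23.4 to 24.1% of UMIs in matched Il13+ cells and 28.3 to 30.1% in Il13- cells, and myeloid markers summed to between 179 and 235 against 88.9 and 169 CPM; their part in the result was not tested.

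Gata3, the master regulator of type 2 helper cells, separated the members weakly. Of the members in the Tfh sort none was higher and 2 of 36 lower in Gata3+ cells (all genes: 0.662% higher, 0.473% lower), with a median of -0.21: Ncl, at 667, 656 and 629 against 550, 572 and 519 CPM (-0.25, edgeR adjusted p = 0.0055), and Npm1, at 1319, 1273 and 1146 against 1048, 1120 and 1016 CPM (-0.23, edgeR adjusted p = 0.00021). Both were lower in each mouse without overlap, yet without mouse 1 (-0.23 and -0.18) or mouse 2 (-0.27 and -0.26) neither passed. The reporter sort gave none higher and 1 of 39 lower (all genes: 3.46% higher, 1.54% lower), Npm1, at 1368, 1382 and 1376 against 1268, 1208 and 1263 CPM (-0.14, edgeR adjusted p = 0.029; -0.12 and not passing without mouse 2), with a median of -0.014. Matching kept 330 of 589 to 409 of 685 Gata3+ cells per mouse in the IL-4 reporter sort. Without it 26 members were higher and 1 lower, with Npm1 at 0.66 (all genes: 2187 higher, 2061 lower of 10274).

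Cxcr5, the follicle-homing receptor by which the Tfh sort was gated, marked cells with less Myc in the reporter sort. Myc stood there at 102, 81.0 and 104 CPM in Cxcr5- and 41.7, 69.3 and 55.7 in Cxcr5+ cells, all Cxcr5+ values below all others (-0.80, SE 0.146, edgeR adjusted p = 0.0028), and the call was lost at a 5% mitochondrial limit alone. None of 39 members was higher and 4 lower (all genes: 3.42% higher, 5.48% lower), with 34 of 39 changes below 0 and a median of -0.18 (-0.25 to -0.17 by mouse). Besides Myc they were Rrp1b, at 34.6, 30.5 and 28.2 against 21.5, 23.8 and 17.6 CPM (-0.58, edgeR adjusted p = 0.026), Gar1 (-0.47, edgeR adjusted p = 0.026) and Nop56, at 86.8, 105 and 94.4 against 71.0, 85.9 and 70.4 CPM (-0.34, edgeR adjusted p = 0.028). Mitochondrial genes took 5.78 to 5.94% of UMIs in Cxcr5+ and 5.17 to 5.39% in Cxcr5- cells, and at the 5% limit no member passed by edgeR and the median was 0.018; without mouse 2 or mouse 3, 2 members passed.

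Within the Tfh sort, where every cell had been gated on CXCR5 protein, no member of 36 passed between cells with and without a Cxcr5 UMI by edgeR (all genes: 0.0272% higher, 0.326% lower); 3 had an unadjusted p under 0.05, and DESeq2 called none. Myc gave 0.032 and Ncl 0.019 there. The sorts' Myc changes of 0.032 and -0.80 were not tested against each other.

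Cycling cells, those with 2 or more UMIs of Mki67 and Top2a together, held less Myc than cells with neither at matched depth. Matching kept 54 of 79 to 70 of 127 cycling cells per mouse in the Tfh sort and 119 of 213 to 135 of 262 in the reporter sort, and dropped mostly the deepest, so the result is for the shallower ones. The Tfh sort gave none higher and 4 of 24 lower (all genes: 11.9% higher, 8.88% lower), with a median of -0.27, and the reporter sort none higher and 4 of 37 lower (all genes: 6.52% higher, 3.71% lower), with a median of -0.16. Myc stood at 295, 301 and 365 CPM in noncycling and 196, 239 and 178 in cycling cells of the Tfh sort (-0.64, SE 0.155, edgeR adjusted p = 0.0006), without overlap. Myc in the reporter sort stood at 123, 95.9 and 114 against 62.1, 93.3 and 73.9 CPM (-0.53, edgeR adjusted p = 0.015), likewise apart, although mouse 2 differed little. Myc no longer passed without mouse 3 in the Tfh sort (-0.47), nor without mouse 1 (-0.32) or mouse 3 (-0.48) in the reporter sort.

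Npm1 was lower in both sorts, at 1505, 1200 and 1105 against 1140, 903 and 943 CPM in the Tfh sort (-0.35, edgeR adjusted p = 0.0007) and at 1728, 1737 and 1557 against 1332, 1320 and 1329 CPM in the reporter sort (-0.33, edgeR adjusted p = 0.00015). Ppan fell furthest in the Tfh sort, from 68.6, 53.7 and 53.5 to 32.2, 30.9 and 18.7 CPM (-1.08, SE 0.330, edgeR adjusted p = 0.0088, not passing at -1.08 without mouse 1 nor at -0.96 without mouse 3), and Ddx21 stood at 176, 161 and 202 against 155, 108 and 116 CPM (-0.51, edgeR adjusted p = 0.03). Nhp2 (-0.45, edgeR adjusted p = 0.01) and Fbl (-0.38, edgeR adjusted p = 0.015) were the others in the reporter sort. Myc kept its sign with cells unmatched and with cells thinned in both sorts, as did Ppan and Ddx21 in the Tfh sort. Ppan did not pass there unmatched, and thinned neither it nor Myc passed. Thinned Myc UMIs per cycling and noncycling cell there were 0.857 and 0.708 in mouse 1. They were 0.383 and 0.634 in mouse 2 and 0.341 and 0.715 in mouse 3. Others turned. Unmatched, 32 members were higher and 1 lower in the reporter sort with Npm1 at 1.05 (all genes: 3151 higher, 3039 lower of 10051). In the Tfh sort 12 were higher and 4 lower with Npm1 at 0.43 (all genes: 1727 higher, 1614 lower of 7859). Thinned to one depth, which keeps the deepest cells, 17 members were higher and 1 lower in the reporter sort with a median of 0.43. Of all 8458 genes tested there, 1699 were higher and 1453 lower. The 38 members other than Myc summed to 20.15, 22.95 and 20.9 UMIs per 4000 in cycling cells. In noncycling cells they summed to 13.2, 13.7 and 13.7, without overlap. The Tfh sort did not turn when thinned, with a median of -0.34. Ribosomal protein genes took 19.9 to 20.8% of UMIs in matched cycling cells and 24.4 to 26.1% in noncycling cells of the Tfh sort, and 23.4 to 25.1% against 28.7 to 29.5% in the reporter sort; their part in the result was not tested.

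Depth itself went with the members, which is why states were matched on it. T cells of each mouse were cut into 5 equal groups by total UMIs; the 38 members other than Myc summed to 2817 ± 114 CPM in the shallowest group and 4145 ± 265 in the deepest in the Tfh sort, and to 3269 ± 162 and 6808 ± 1060 in the reporter sort (SD, n = 3). Among cells with no Mki67 or Top2a UMI the ends stood at 2851 ± 135 and 3910 ± 398 CPM in the Tfh sort and at 3328 ± 327 and 4291 ± 281 CPM in the reporter sort. Myc stood at 317 ± 71.6 and 306 ± 37.7 CPM at the ends of the Tfh sort and at 96.1 ± 8.57 and 64.7 ± 17.9 CPM in the reporter sort. Among cells with no Mki67 or Top2a UMI it stood at 323 ± 90.9 and 376 ± 45.2 CPM in the Tfh sort and at 99.8 ± 24.5 and 104 ± 16.4 CPM in the reporter sort. These levels are a description with no test; more RNA in a cell and fuller capture of it cannot be told apart here.

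**Figure D5:**
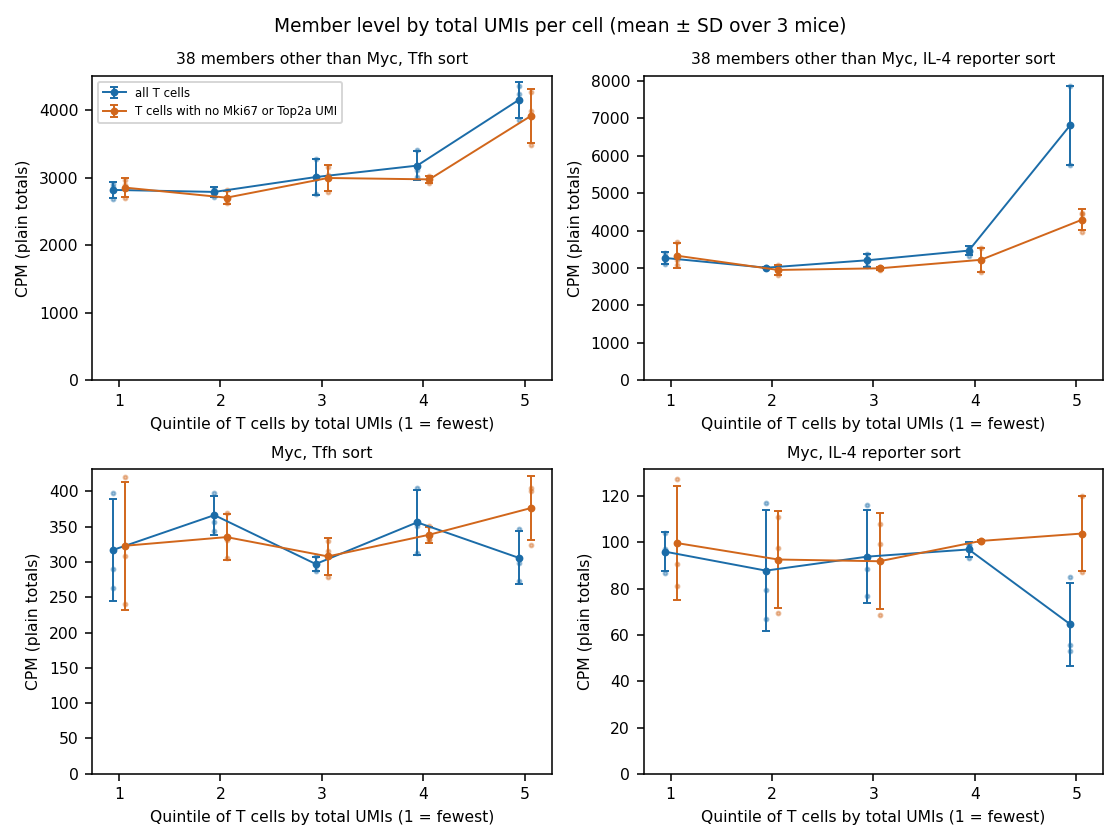
Summed level of the 38 members other than Myc (top) and of Myc (bottom) in CPM of plain totals, by quintile of total UMIs per T cell, mean ± SD over 3 mice with mice as pale points; blue marks all T cells and orange those with no Mki67 or Top2a UMI. The top rows climb in the deepest quintile, to 4145 CPM in the Tfh sort and 6808 CPM in the reporter sort, and Myc in all T cells stands at 306 and 64.7 CPM there.

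Other genes of the pathway were read from lists of 10 Myc network partners, 99 further ribosome biogenesis genes and 22 further Myc targets, chosen by function. Across B cells of the Tfh sort, 19 of 66 further biogenesis genes were higher and 3 lower, led by Nifk (1.86), Nol12 (1.84) and Brix1 (1.47), where 23.2% of all genes were higher, and 9 of 20 further targets were higher and 4 lower, led by the amino acid transporter gene Slc7a5 (1.44) and the spermidine synthase gene Srm (1.41). Among B cells of the reporter sort 2 of 66 biogenesis genes were higher and 1 lower, Ddx24 (-0.92), fewer than the 13.9% of all genes that were higher. The network held Mxd4, a Max partner that opposes Myc, lower in B cells of the Tfh sort, at 68.5 ± 2.08 against 25.7 ± 3.42 CPM (SD, -1.42, edgeR adjusted p = 3.7e-05).

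Among Tnfrsf9+ cells the targets showed the same direction: 8 of 21 were higher in the Tfh sort and 7 of 22 in the reporter sort, none lower in either, with Odc1, the rate-limiting enzyme of polyamine synthesis, higher in both, at 213 ± 21.8 against 306 ± 11.7 and 173 ± 13.2 against 234 ± 15.2 CPM (SD; 0.50 and 0.43). Of the further biogenesis genes, 1 of 83 was higher in the Tfh sort, Rrp15 (1.08), and 1 lower, Ddx24 (-0.32), against 2.29% of all genes higher. In the reporter sort 5 of 99 were higher, Rrp15 among them (0.55), and none lower, against 2.07% of all genes higher. In Il2+ cells, 4 of 87 further biogenesis genes were higher in the Tfh sort, with Mphosph10 (0.72), Gtpbp4 (0.50) and Eif6 (0.41) leading, and 3 of 99 in the reporter sort, none lower, near the 3.35% and 2.27% of all genes that were higher. Eif5a, a translation factor, was higher in Il2+ cells of both (0.20 and 0.17). Myc+ cells had 2 of 91 and 8 of 99 further biogenesis genes higher and 3 of 21 and 8 of 22 targets, none lower, Mphosph10 among them in both sorts (0.57 and 0.35), where 3.07% and 3.12% of all genes were higher.

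Il4+ cells of the Tfh sort had 3 of 21 targets lower and 1 higher (all genes: 2.36% higher, 2.07% lower), led by the chaperonin gene Hspd1 (-0.53). Those of the reporter sort had 7 of 22 lower and none higher (all genes: 4.05% higher, 1.41% lower), led by Srm (-0.77), Odc1 (-0.52) and Cdk4 (-0.38). Lyar was lower in both (-0.60 and -0.42). Gata3+ cells of the Tfh sort had 4 of 21 targets lower (all genes: 0.473% lower), among them Pa2g4 (-0.40), Hspd1 (-0.33) and Ranbp1 (-0.31). Il13+ cells of the reporter sort had 2 targets higher and 3 lower of 22, near the shares of all genes (12% higher, 8.86% lower), with Ldha of glycolysis at 0.49 and Odc1 at -0.50. Mxd1, another Max partner that opposes Myc, was higher there, at 11.2 ± 0.675 against 23.5 ± 2.16 CPM (SD, 1.08, edgeR adjusted p = 0.0011). Cxcr5+ cells of the reporter sort had 3 of 22 targets lower (all genes: 5.48% lower), Slc3a2, Ldha and Eif5a, between -0.36 and -0.31, and Mxd4 higher (0.50).

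Cycling cells had more Mxd3 and less Mxd4 in both sorts. Mxd3, known to be expressed in dividing cells, stood at 1.94 ± 1.70 CPM in noncycling and 54.2 ± 3.87 in cycling cells of the Tfh sort and at 0.878 ± 0.857 against 23.0 ± 3.87 in the reporter sort (SD; both passed, and the fold depends on a level near 0). Mxd4 stood at 74.2 ± 5.56 against 24.5 ± 6.68 CPM in the Tfh sort (-1.57, edgeR adjusted p = 2.5e-05) and at 106 ± 3.16 against 63.5 ± 5.85 in the reporter sort (-0.74, edgeR adjusted p = 0.00016). Srm was lower in cycling cells of both sorts (-1.08 and -0.87).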

How the data were processed

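Sorted mouse T cells were analysed as raw molecule counts (UMI counts per gene and cell barcode), deposited by the authors with hashtag counts. Per the labels' protocols they are 10x 3′ libraries, v2 chemistry on HiSeq4000 for the Tfh sort and v3 on NovaSeq for the IL-4 reporter sort; Cell Ranger 2.2.0, bcl2fastq and GRCm38/mm10 are listed, per the submitters' processing notes, while the reporter matrix carries 3.0.2 per the file headers. How counting divides reads among near-identical copies, such as Npm1 pseudogenes, is not given in the sources used here.

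Barcodes with at least 500 genes and at most 10% mitochondrial UMIs were kept. A mouse was assigned from the hashtag with at least 10 counts and 3 times the next, which also drops doublets across mice; no other doublet caller was run. T cells had 2 or more UMIs of Cd3d, Cd3e, Cd3g, Trac, Trbc1 and Trbc2 together, no Cd79a, Cd8a or Cd8b1 and fewer than 3 UMIs of Lyz2, C1qa, C1qb and C1qc; B cells had 2 or more Cd79a UMIs and fewer than 2 of the T-cell genes. States were read from UMIs (2 or more against 0 for Il2, Il13, Il4 and Mki67 with Top2a, 1 or more against 0 for Tnfrsf9, Gata3, Cxcr5 and Myc). Both states of a mouse were matched in bins of 0.25 log2 UMIs, summed per mouse (at least 10 cells a sum) and tested with edgeR 4.0.16 (R 4.3.3): quasi-likelihood test, TMM, filterByExpr with a minimum count of 10, mouse as a block, Benjamini-Hochberg adjustment over all genes tested. Comparisons over 3 mice have 6 sums and 2 residual degrees of freedom before moderation across genes; Il13 in the Tfh sort, over 2 mice, has 4 sums and 1. The hashtag ties both states of a mouse together, so the block pairs real sources. With 9 comparisons in each sort, p-values were not adjusted across comparisons. Cells were thinned to 2000 or 4000 UMIs for the fixed-depth values. The edgeR fit was tested on simulated sums with 200 genes changed and no mouse effect. State calling and depth matching were not simulated, nor were changes below 2-fold. Of the genes changed 2-fold, 75% were recovered for Il2 in the Tfh sort, 53% and 40% for B cells in the Tfh and reporter sorts, 30% for Il13 in the Tfh sort and 60% to 86% in the others.

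Genes named are Myc, Ncl and Npm1 always, then the called members that moved the same way in every mouse, largest first, and up to 3 of each further list; any other gene was picked with its values known. The members and lists were chosen with earlier results of these data known. One further biogenesis gene, Riok2, was not matched. Alternatives were RLE size factors, no low-count filter, no block, DESeq2 1.42.0, each mouse left out, unmatched or thinned cells, another seed, a 5% mitochondrial limit and stricter states. Further alternatives left out cells with any Mki67 or Top2a UMI, any Foxp3 UMI, any Il2 UMI or great depth. Counting sets the precision, and mice number 3 a sort.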

Additional observations from a re-analysis of the deposited data

How the results depend on the processing

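The 107 results on named members were recomputed under 12 to 16 alternatives each, which gave 1618 values. Of these values, 1073 kept the direction and side of the threshold, 450 kept the direction and no longer passed, 30 newly passed and 65 turned. Where a value below departs from the report, the cause was not tested, except that leaving cells or mice out leaves fewer counts. Without the replicate block, which pairs the states of a mouse, 45 of 88 called genes still passed, and with DESeq2 21 of 88. With RLE size factors, members called were 0 for Il13 in the Tfh sort. With no low-count filter, members called were 2 for Il2, 2 for Il13, 2 for Il4 and 1 for Gata3 in the Tfh sort. They were 9 for Cxcr5, 8 for Myc and 6 for B cells in the reporter sort. With no low-count filter, median log2 changes were 0.65 for B cells in the Tfh sort. Without the replicate block, members called were 2 for Il2 and 0 for Gata3 in the Tfh sort. They were 0 for Il2, 0 for Tnfrsf9, 0 for Il4, 0 for Gata3, 2 for Cxcr5, 2 for cycling and 0 for Myc in the reporter sort. Without the replicate block, median log2 changes were -0.21 for cycling in the Tfh sort. With DESeq2, members called were 1 for Il2, 0 for Tnfrsf9, 0 for Il13, 0 for Il4, 0 for Gata3, 0 for cycling, 1 for Myc and 8 for B cells in the Tfh sort. They were 1 for Il2, 2 for Tnfrsf9, 0 for Il13, 1 for Il4, 0 for Gata3, 1 for Cxcr5, 1 for cycling, 3 for Myc and 2 for B cells in the reporter sort. With DESeq2, median log2 changes were -0.29 for cycling in the Tfh sort. Without depth matching, members called were 11 for Il2, 13 for Tnfrsf9, 0 for Il13, 2 for Il4, 16 for cycling and 12 for Myc in the Tfh sort. They were 23 for Il2, 33 for Tnfrsf9, 30 for Il13, 10 for Il4, 27 for Gata3, 25 for Cxcr5, 33 for cycling, 35 for Myc and 3 for B cells in the reporter sort. Without depth matching, median log2 changes were 0.35 for Il2, 0.56 for Tnfrsf9, 0.041 for Il4, 0.034 for Gata3, 0.27 for cycling and 0.58 for B cells in the Tfh sort. They were 0.40 for Il2, 0.62 for Tnfrsf9, 0.71 for Il13, 0.18 for Il4, 0.53 for Gata3, -0.47 for Cxcr5, 0.76 for cycling, 0.65 for Myc and 0.11 for B cells in the reporter sort. Without depth matching, turned log2 changes were Ncl 0.0084, Npm1 0.14 and Nhp2 0.053 for Il4 in the Tfh sort, Npm1 0.16 for Gata3 in the Tfh sort, Npm1 0.096 for Cxcr5 in the Tfh sort, Ncl 0.27 and Npm1 0.43 for cycling in the Tfh sort, Npm1 -0.016 for B cells in the Tfh sort, Ncl 0.94, Npm1 0.83 and Dkc1 0.66 for Il13 in the reporter sort, Ncl 0.31, Npm1 0.16, Gar1 0.092, Nop56 0.096, Dkc1 0.12 and Nhp2 0.32 for Il4 in the reporter sort, Ncl 0.73 and Npm1 0.66 for Gata3 in the reporter sort, Ncl 1.13, Npm1 1.05, Nhp2 1.35 and Fbl 0.43 for cycling in the reporter sort, Ncl -0.27 and Npm1 -0.47 for B cells in the reporter sort. With thinned cells, members called were 0 for Il13, 0 for Il4, 0 for Gata3 and 2 for cycling in the Tfh sort. They were 7 for Tnfrsf9, 15 for Il13, 0 for Il4, 0 for Gata3, 11 for Cxcr5, 18 for cycling, 7 for Myc and 2 for B cells in the reporter sort. With thinned cells, median log2 changes were 0.24 for Il2, 0.65 for Tnfrsf9, -0.46 for Il13, -0.059 for Gata3, -0.20 for Cxcr5 and -0.34 for cycling in the Tfh sort. They were 0.50 for Il2, 0.57 for Tnfrsf9, 0.42 for Il13, -0.39 for Il4, -0.46 for Cxcr5, 0.43 for cycling and 0.044 for B cells in the reporter sort. With thinned cells, turned log2 changes were Myc -0.024 and Ncl -0.13 for Cxcr5 in the Tfh sort, Ncl 0.48, Npm1 0.37 and Dkc1 0.068 for Il13 in the reporter sort, Myc -0.92 for Il4 in the reporter sort, Ncl 0.072 for Gata3 in the reporter sort, Ncl 0.75, Npm1 0.64, Nhp2 1.06 and Fbl 0.19 for cycling in the reporter sort, Ncl -0.12 and Npm1 -0.40 for B cells in the reporter sort. With another seed of the matching, members called were 7 for Il2, 0 for Il13, 1 for Gata3 and 7 for cycling in the Tfh sort. They were 6 for Tnfrsf9, 5 for Il13, 11 for Il4 and 6 for B cells in the reporter sort. With another seed of the matching, median log2 changes were 0.27 for Il2, -0.11 for Gata3 and -0.63 for cycling in the Tfh sort. They were -0.26 for cycling in the reporter sort. With another seed of the matching, turned log2 changes were Ncl -0.048 for Cxcr5 in the Tfh sort, Myc 0.0055 for Gata3 in the reporter sort. At the 5% mitochondrial limit, members called were 0 for Il13 and 2 for Il4 in the Tfh sort. They were 1 for Il2, 0 for Tnfrsf9, 8 for Il4, 0 for Gata3, 0 for Cxcr5 and 9 for Myc in the reporter sort. At the 5% mitochondrial limit, median log2 changes were 0.29 for Il2, -0.46 for cycling and 1.01 for B cells in the Tfh sort. They were 0.11 for Tnfrsf9, -0.16 for Il13, -0.36 for Il4, 0.018 for Cxcr5 and -0.47 for cycling in the reporter sort. At the 5% mitochondrial limit, turned log2 changes were Ncl -0.066 for Cxcr5 in the Tfh sort, Ncl -0.0028, Npm1 -0.063 and Mrto4 -0.055 for Tnfrsf9 in the reporter sort, Ncl 0.018, Npm1 0.13 and Nop56 0.14 for Cxcr5 in the reporter sort. With stricter states, members called were 7 for Il2, 19 for Tnfrsf9 and 8 for cycling in the Tfh sort. They were 2 for cycling and 5 for Myc in the reporter sort. With stricter states, median log2 changes were 0.31 for Il2, 0.85 for Tnfrsf9, -0.34 for Gata3, -0.25 for Cxcr5 and -0.54 for cycling in the Tfh sort. They were 0.50 for Tnfrsf9, -0.44 for Il4, -0.32 for Cxcr5 and -0.11 for cycling in the reporter sort. With stricter states, turned log2 changes were Myc -0.19 and Ncl -0.14 for Cxcr5 in the Tfh sort, Myc 0.0077 for Il13 in the reporter sort, Ncl 0.0079 for cycling in the reporter sort. Without cycling cells, members called were 5 for Tnfrsf9, 0 for Il13, 2 for Il4, 0 for Gata3 and 1 for Cxcr5 in the Tfh sort. They were 1 for Il13, 0 for Il4, 9 for Cxcr5, 5 for Myc and 3 for B cells in the reporter sort. Without cycling cells, median log2 changes were 0.34 for Il2, -0.11 for Gata3 and 0.27 for Myc in the Tfh sort. They were 0.49 for Il2, 0.64 for Tnfrsf9, -0.12 for Gata3 and -0.27 for Cxcr5 in the reporter sort. Without cycling cells, turned log2 changes were Ncl -0.12 for Cxcr5 in the Tfh sort, Myc 0.59 for Il13 in the reporter sort. Without Foxp3 cells, members called were 5 for Tnfrsf9, 2 for Il4 and 4 for Gata3 in the Tfh sort. They were 6 for Tnfrsf9, 5 for Il13 and 11 for Il4 in the reporter sort. Without Foxp3 cells, median log2 changes were 0.27 for Il2 and -0.47 for cycling in the Tfh sort. They were -0.098 for cycling in the reporter sort. Without Foxp3 cells, turned log2 changes were Ncl -0.037 for Cxcr5 in the Tfh sort. Without the deepest cells, members called were 0 for Il13, 2 for Il4, 0 for Gata3 and 7 for Myc in the Tfh sort. They were 21 for Tnfrsf9, 0 for Gata3, 10 for Cxcr5, 8 for Myc and 4 for B cells in the reporter sort. Without the deepest cells, median log2 changes were 0.28 for Il2, -0.15 for Il4, -0.074 for Gata3 and -0.41 for cycling in the Tfh sort. They were 0.34 for Il2, 0.63 for Tnfrsf9, -0.14 for Il13 and 0.29 for B cells in the reporter sort. Without the deepest cells, turned log2 changes were Myc 0.013 for Il13 in the Tfh sort, Ncl -0.035 for Cxcr5 in the Tfh sort, Myc 0.19 for Il13 in the reporter sort. Without Il2 cells, members called were 1 for Tnfrsf9, 1 for Il4, 0 for Gata3 and 0 for Myc in the Tfh sort. They were 1 for Tnfrsf9, 1 for Il13, 3 for Il4, 2 for Cxcr5 and 4 for Myc in the reporter sort. Without Il2 cells, median log2 changes were 0.31 for Tnfrsf9, -0.14 for Il4 and -0.23 for Cxcr5 in the Tfh sort. They were 0.043 for Il13 in the reporter sort. Without Il2 cells, turned log2 changes were Ncl -0.14 for Cxcr5 in the Tfh sort, Myc 0.082 and Ncl 0.020 for Il13 in the reporter sort. Leaving out each mouse in turn, members called in the Tfh sort ranged from 2 to 3 for Il2, 0 to 6 for Tnfrsf9, 1 to 4 for Il4, 0 to 5 for Gata3, 1 to 3 for cycling and 0 to 3 for Myc. Leaving out each mouse in turn, median log2 changes in the Tfh sort ranged from -0.40 to -0.15 for cycling and 0.84 to 1.07 for B cells. Leaving out each mouse in turn, members called in the reporter sort ranged from 2 to 7 for Il2, 0 to 8 for Tnfrsf9, 2 to 5 for Il4, 0 to 1 for Gata3, 2 to 7 for Cxcr5, 1 to 3 for cycling, 8 to 14 for Myc and 5 to 11 for B cells. Leaving out each mouse in turn, median log2 changes in the reporter sort ranged from -0.24 to -0.15 for Cxcr5 and 0.34 to 0.79 for B cells. The log2 changes that turned ranged over Myc -0.11 to 0.11 for Cxcr5 in the Tfh sort, Ncl -0.18 to 0.036 for cycling in the Tfh sort, Ncl -0.059 to 0.030 for Il13 in the reporter sort, Myc -0.25 to 0.054 for Gata3 in the reporter sort and Ncl -0.034 to 0.016 for Gata3 in the reporter sort. Directions turned for whole counts without depth matching in the reporter sort, where Il13 gave 29 higher and 1 lower, Il4 10 and 0, Gata3 26 and 1 and cycling 32 and 1, and in the Tfh sort, where cycling gave 12 and 4; with thinned cells Il13 gave 15 and 0 and cycling 17 and 1 in the reporter sort. Counts of all genes called in these settings are given with each comparison above. Thinned states were read from the thinned UMIs, so they hold other cells. Leaving out the deepest cells was chosen after seeing the data. Not run, for want of cells, were leaving out a mouse and leaving out cells with any Il2 UMI for Il13 in the Tfh sort. They were the 5% mitochondrial limit for B cells in the reporter sort. Depth limits the scarce members most: Polr1b and Heatr1 could not be tested in the Tfh sort.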
